A study of Komagataella pastoris with 4 samples.

Results

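The amino acid biosynthesis genes of the yeast Pichia pastoris (Komagataella phaffii) were described in cells that metabolize ethanol, with and without the zinc finger transcription factor Mxr1p. They were taken as the rows of the gene count table whose KEGG ortholog description holds a word of these routes, from aminotransferase and isopropylmalate to cystathionine and pyrroline, with 1 row left out by the rule. They numbered 62 of 5427 rows, and all 62 were among the 5425 rows tested. KEGG placed 58 of the 62 under amino acid metabolism. The words also took in 11 rows set apart as having another role, namely 3 of folate synthesis, 2 of the kynurenine route to NAD, 1 of polyamine synthesis and 5 of breakdown. These 5 include the cystathionine gamma-lyase CTH, which also makes cysteine. These 11 are named as such where they appear. The locus tags place the members on chromosomes 1 to 4, and symbols are those of the KEGG orthologs, some of which are bacterial names.

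The series compared Dmxr1, a GS115 derivative whose MXR1 coding region was disrupted with a zeocin resistance cassette, with its parent GS115, the wild type of the labels. Both strains are histidine auxotrophs (his4), and each was cultured in duplicate for 14 h in yeast nitrogen base that held ammonium sulphate and no amino acids, with ethanol as carbon source. The sources used here state neither whether histidine was added to this medium nor how many transformant clones stand behind Dmxr1. RNA was sequenced from 2 libraries per strain, so the p-values rest on 4 libraries. Both strains were sampled at the same hour, and a difference in the growth stage they had reached cannot be told apart from the strain.

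The 4 libraries held between 24140235 and 29402357 counts, and the lowest count of any member in any library was 484. The first principal component of the log2 values took 75.7% of the variance and placed the Dmxr1 libraries at -21.5 and -12.4, against 21.9 and 12.1 for the GS115 libraries. The MXR1 row (ACIB2EUKG772516, annotated as ADR1, its Saccharomyces cerevisiae relative) had 206 and 258 CPM in Dmxr1, against 287 and 405 CPM in GS115. CPM are counts scaled to library size with edgeR's TMM factors. Fold changes throughout are log2 values ± SE, Dmxr1 over GS115, and that of MXR1 was -0.58 ± 0.21 (adjusted p = 0.0787). Both Dmxr1 libraries lay below both GS115 libraries without passing the test. Which part of the coding region the cassette replaced is not stated in the sources used, so this row does not check the strain labels.

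Yeasts can make every proteinogenic amino acid from intermediates of central metabolism and ammonium. Ammonium enters through glutamate and glutamine, which then pass their nitrogen to the other carbon skeletons, usually by aminotransferases. In Saccharomyces cerevisiae many of these genes are raised together by the activator Gcn4 when an amino acid is short, a response called general amino acid control. Leucine, valine and isoleucine share mitochondrial steps, fungi make lysine through 2-aminoadipate, and the aromatic amino acids branch from chorismate.

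More members rose than fell in Dmxr1, and each increase was below 2-fold. At an adjusted p of at most 0.05 (edgeR quasi-likelihood test, Benjamini-Hochberg over all 5425 genes), 11 of the 62 members rose (17.7%) and 2 fell (3.23%), where 5.07% of all genes tested rose and 10.5% fell. The 11 that rose encode enzymes of the routes to histidine, lysine, arginine, leucine and methionine, glutamate synthase and 1 enzyme of NAD synthesis, and their log2 fold changes ran from 0.61 to 0.94. The 2 that fell were ARO9, an aromatic aminotransferase, and thrB1, the homoserine kinase of threonine synthesis. The median log2 fold change of the members was 0.20, against 0.0041 over all genes tested, and 46 of 62 members (74.2%) had a positive value, against 50.5% of all genes. In 34 members (54.8%) both Dmxr1 libraries lay above both GS115 libraries, which 31.1% of all genes did, and in 7 (11.3%) both lay below, which 31.3% of all genes did. The members also had higher CPM (median 215, against 66.2 over all genes), and no share was taken over genes of like level. Counts are relative to each library's total, so a change in RNA per cell or in the mixture of cells in a culture cannot be told apart from a change in these transcripts.

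At the study's added threshold of a log2 fold change of at least 1, edgeR called no member higher (0.535% of all genes were), and DESeq2 called 0 as well, while 21 members were higher and 5 lower at an unadjusted p under 0.05 (13.5% and 18.5% of all genes were). ARO9 was the 1 member called lower with that threshold, where 3.26% of all genes were. Without the fold threshold DESeq2 called 13 members higher and 3 lower, the 11 and 2 above among them, and 6.75% of all genes higher and 11.4% lower. Without the 11 rows of another role, 10 of 51 members rose and 2 fell, and the median was 0.24. ARO9, whose enzyme starts a breakdown route in Saccharomyces cerevisiae, is not among the 11 and stays among those 51 and those 2. Scaling moved the split over all genes, which was 275 higher and 567 lower with TMM, 448 and 532 with upper-quartile scaling, and 329 and 391 with library size alone. The same scalings gave 11 and 2 members, 15 and 3, and 13 and 1.

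Fewest calls remained when Dmxr1 replicate 1 was left out. A fit without a Dmxr1 library takes its spread between replicates from GS115 alone. Whether calls were lost through that spread or through smaller fold changes was not tested. Without Dmxr1 replicate 1, edgeR called 0 members higher and 0 lower (10 and 4 at an unadjusted p under 0.05), the smallest adjusted p of a member was 0.0676, and over all genes 45 were higher and 164 lower. DESeq2 on the same 3 libraries called 0 higher and 1 lower, ARO9. All 11 members that rose in the 4 libraries had a positive fold change there, and the median over the 62 members was 0.21. Without Dmxr1 replicate 2 the counts were 9 higher and 2 lower (207 and 463 over all genes), and without GS115 replicate 1 they were 7 and 1 (180 and 304). Without GS115 replicate 2 they were 11 and 5 (289 and 757), so the share of lower members was below the 14.0% of all genes lower in that fit. Of the 13 members that passed, 8 passed in 3 of these 4 fits, HIS4 and MET17 passed in none, and no fold change turned its direction.

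**Figure D1:**
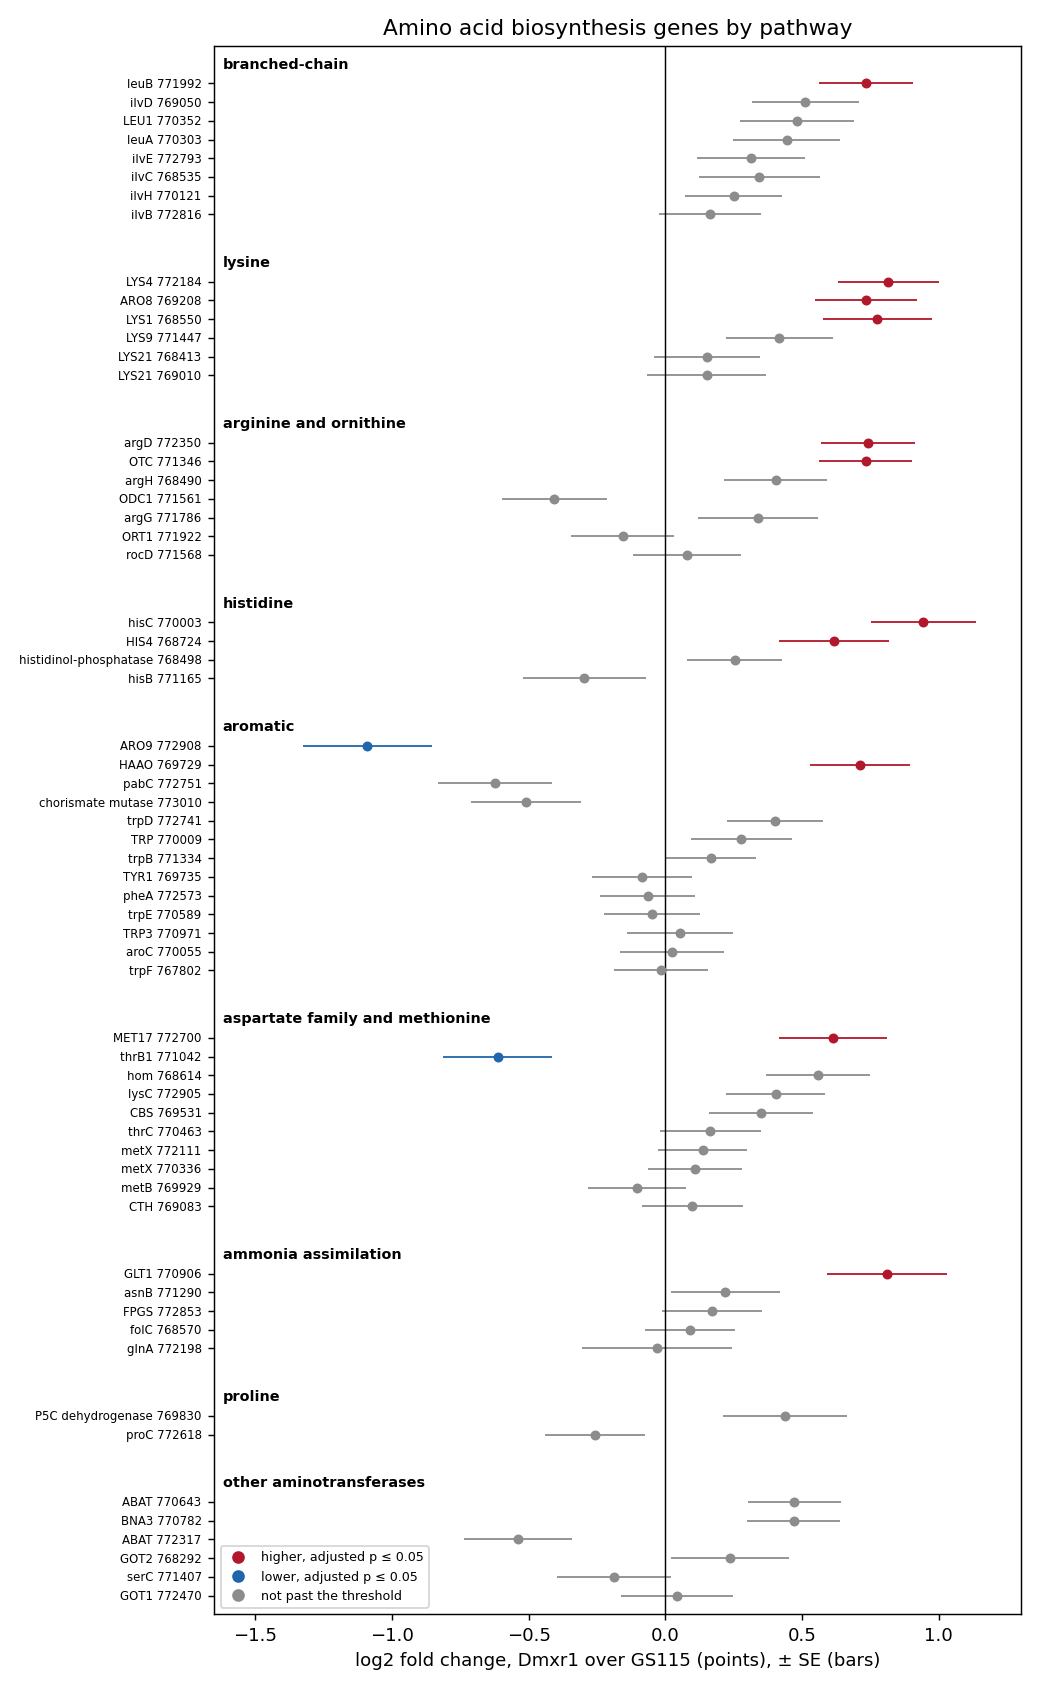
Log2 fold change of 61 of the 62 members, Dmxr1 over GS115 (points, x axis), with its standard error (bars), grouped by pathway down the page. Red points are the 11 members that rose, blue points the 2 that fell, and grey points 48 that did not pass, and labels carry the last 6 digits of the gene identifier. All 8 branched-chain points and the 6 lysine points shown lie right of 0, while the 13 aromatic points lie on both sides. ARO8 is drawn with lysine.

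**Figure D2:**
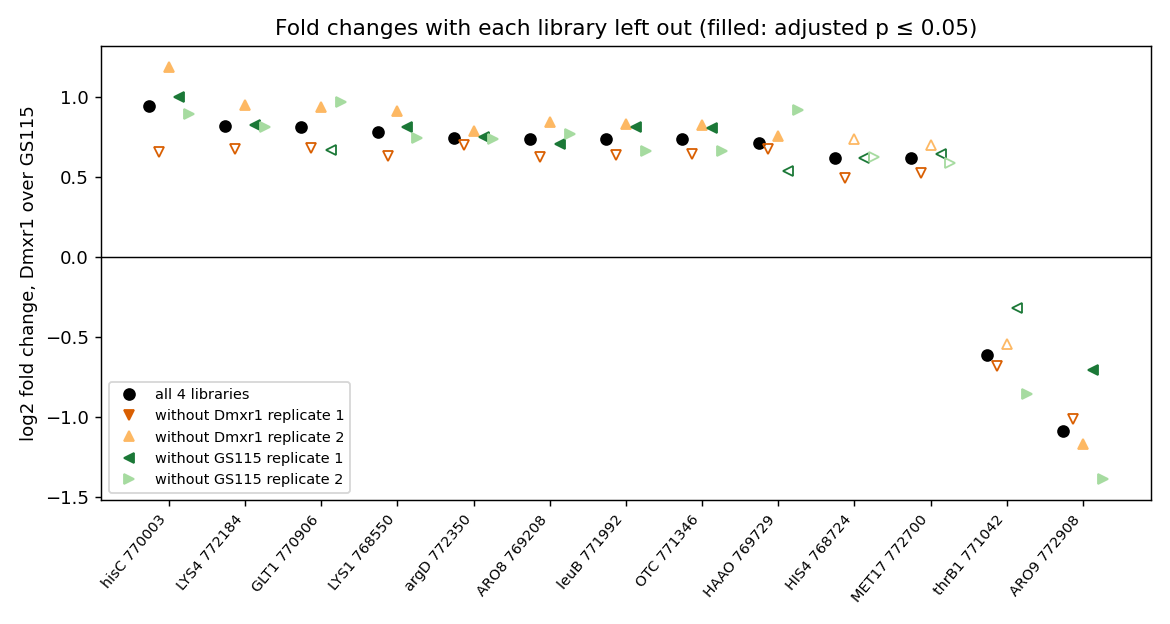
Log2 fold change (y axis) of the 13 members that passed, in the fit of all 4 libraries (black circles) and with each library left out in turn (triangles), filled where the adjusted p was at most 0.05. All 13 downward triangles, the fits without Dmxr1 replicate 1, are open, and no symbol crosses 0.

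The histidine route held the member that rose most. hisC (ACIB2EUKG770003), the histidinol-phosphate aminotransferase that makes histidinol phosphate, had 118 and 81.5 CPM in Dmxr1, against 53.8 and 49.9 CPM in GS115. Both Dmxr1 libraries lay above both GS115 libraries, and the log2 fold change was 0.94 ± 0.19, with an adjusted p of 0.00476. HIS4 (ACIB2EUKG768724) encodes the trifunctional enzyme of early steps and of the last step, and its mutant allele makes both strains auxotrophs. Its level was 901 and 764 CPM in Dmxr1, against 541 and 543 CPM in GS115 (log2 0.62 ± 0.20, adjusted p = 0.0478), so the GS115 libraries were nearly equal and the Dmxr1 libraries above them. Fitted without Dmxr1 replicate 1, the log2 fold changes were 0.65 (adjusted p = 0.115) for hisC and 0.49 (adjusted p = 0.374) for HIS4. Of the 2 other histidine rows, the histidinol-phosphatase (ACIB2EUKG768498) had 120.0 and 100.1 CPM in Dmxr1, against 98.6 and 86.0 CPM in GS115 (log2 0.25 ± 0.17, adjusted p = 0.331). hisB (ACIB2EUKG771165), the imidazoleglycerol-phosphate dehydratase, had 182 and 159 CPM in Dmxr1, against 263 and 155 CPM in GS115 and overlapped between strains (log2 -0.30 ± 0.23, adjusted p = 0.387). The spread between the GS115 replicates of hisB exceeded the difference between strains.

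Steps of the same route that the rule's words missed were read from a second list of 39 rows, mostly of amino acid routes. The first enzyme, hisG (ACIB2EUKG768806), the ATP phosphoribosyltransferase, also rose, with 131 and 96.4 CPM in Dmxr1, against 70.4 and 55.6 CPM in GS115 (log2 0.86 ± 0.19, adjusted p = 0.00841, and 0.61, adjusted p = 0.153, without Dmxr1 replicate 1). The isomerase hisA had 146 and 129 CPM in Dmxr1, against 103 and 99.5 CPM in GS115 (log2 0.44 ± 0.17, adjusted p = 0.0894). Among the histidine rows hisB alone had a negative fold change.

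**Figure D3:**
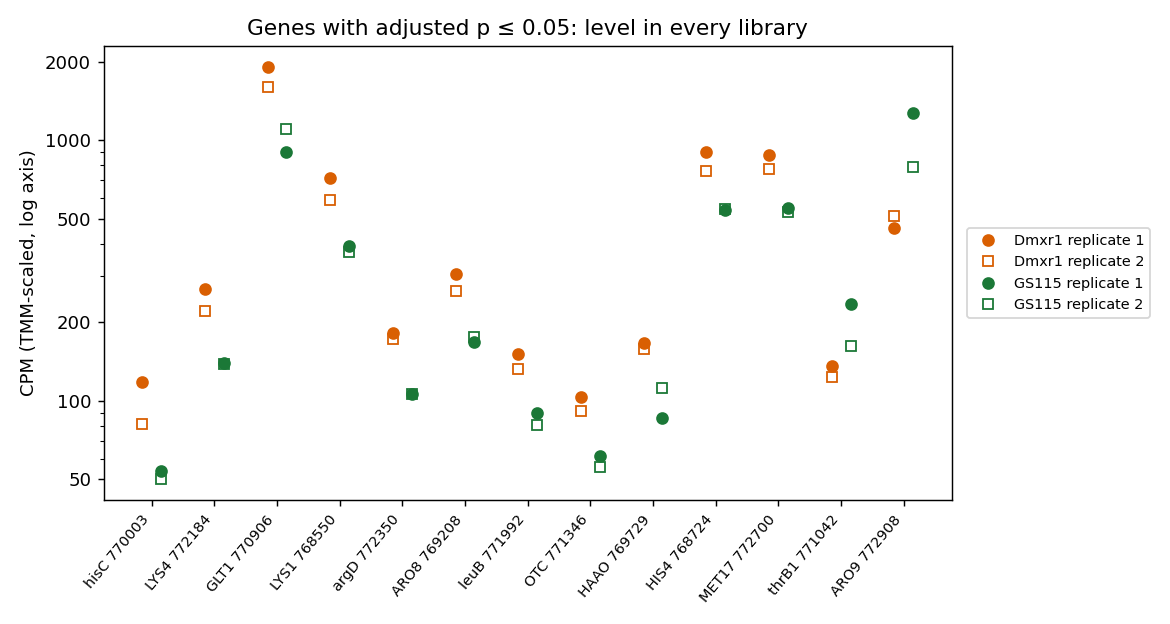
Level of the 13 members that passed (x axis, by log2 fold change) in each library, in TMM-scaled CPM on a log axis, with Dmxr1 in orange to the left of GS115 in green, replicate 1 filled and replicate 2 open. In the 11 members on the left both orange symbols lie above both green ones, and in thrB1 and ARO9 both lie below. Levels are not corrected for gene length and are not to be compared between genes.

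In the lysine route 3 of 7 members rose and none fell, where 5.07% and 10.5% of all genes did. All 7 fold changes were positive, against 50.5% of those of all genes. DESeq2 also gave 3 higher and 0 lower (6.75% and 11.4% of all genes). At an unadjusted p under 0.05 there were 4 higher and 0 lower (13.5% and 18.5% of all genes). LYS4 (ACIB2EUKG772184), the homoaconitase of the 2-aminoadipate route, had 269 and 222 CPM in Dmxr1, against 139.8 and 139 CPM in GS115. The GS115 libraries were nearly equal and both Dmxr1 libraries lay above them (log2 0.82 ± 0.18, adjusted p = 0.00850). LYS1 (ACIB2EUKG768550), the saccharopine dehydrogenase that releases lysine, had 715 and 589.7 CPM in Dmxr1, against 391 and 371 CPM in GS115 (log2 0.78 ± 0.20, adjusted p = 0.0169). ARO8 (ACIB2EUKG769208) is annotated as aromatic aminotransferase I and as 2-aminoadipate transaminase, and so belongs to the lysine and the aromatic routes. Its level was 307 and 263 CPM in Dmxr1, against 168 and 175 CPM in GS115 (log2 0.74 ± 0.19, adjusted p = 0.0157). Without Dmxr1 replicate 1 the fold changes were 0.67 (adjusted p = 0.120) for LYS4, 0.63 (adjusted p = 0.207) for LYS1 and 0.62 (adjusted p = 0.172) for ARO8.

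The other lysine members did not pass. LYS9 (ACIB2EUKG771447), the saccharopine dehydrogenase of the step before LYS1, had 511 and 481 CPM in Dmxr1, against 407 and 335 CPM in GS115, no overlap and a fold change of 0.42 ± 0.20 (adjusted p = 0.156). The homocitrate synthases open the route in 2 rows that carry the same annotation, LYS21 or LYS20. The row with most counts in the group, ACIB2EUKG769010, had 1482 and 1776 CPM in Dmxr1, against 1576 and 1357 CPM in GS115 (log2 0.15 ± 0.22, adjusted p = 0.662). With each library left out in turn it ranged from 0.015 to 0.28. The fold change of the other, ACIB2EUKG768413, was 0.15 ± 0.19 (adjusted p = 0.619). Both overlapped between strains. The sources used here do not state how reads that match both copies were counted. LYS2, the 2-aminoadipate reductase of the second list, had 293 and 273 CPM in Dmxr1, against 224 and 214 CPM in GS115 (log2 0.37 ± 0.18, adjusted p = 0.177).

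In all 8 branched-chain members both Dmxr1 libraries lay above both GS115 libraries, as in 31.1% of all genes. Of these members 1 rose and none fell, where 5.07% and 10.5% of all genes did, and the median log2 fold change was 0.39. Rows of the route outside the members differed. An acetolactate synthase regulatory row, ACIB2EUKG767985, fell (log2 -1.04 ± 0.21, adjusted p = 0.00404), and another, ACIB2EUKG770122, overlapped (log2 -0.041 ± 0.24). In the second list ilvA, the threonine dehydratase of isoleucine synthesis, also overlapped (log2 0.18 ± 0.18, adjusted p = 0.526). leuB (ACIB2EUKG771992), the 3-isopropylmalate dehydrogenase that is the third enzyme of the leucine branch, had 151 and 132 CPM in Dmxr1, against 89.3 and 80.7 CPM in GS115. The spread between replicates was smaller than the gap between strains (log2 0.73 ± 0.17, adjusted p = 0.00984). Without Dmxr1 replicate 1 the fold change was 0.64 (adjusted p = 0.125). LEU1 (ACIB2EUKG770352), the isopropylmalate dehydratase before it, had 484 and 344 CPM in Dmxr1, against 285 and 308 CPM in GS115 (log2 0.48 ± 0.21, adjusted p = 0.123). leuA (ACIB2EUKG770303), the isopropylmalate synthase that opens the branch, had 429 and 348 CPM in Dmxr1, against 293 and 278 CPM in GS115 (log2 0.44 ± 0.19, adjusted p = 0.129). The 3 enzymes of the branch thus had fold changes of 0.44, 0.48 and 0.73 in the order of their steps, and differences between them were not tested.

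No member at the steps shared by valine, isoleucine and leucine synthesis passed. ilvB (ACIB2EUKG772816), the large subunit of acetolactate synthase, had 0.16 ± 0.19 (adjusted p = 0.580). Its small subunit ilvH (ACIB2EUKG770121) had 0.25 ± 0.18 (adjusted p = 0.346). ilvC (ACIB2EUKG768535), the reductoisomerase with the most counts of the group, had 2008 and 2113 CPM in Dmxr1, against 1824 and 1422 CPM in GS115 (log2 0.34 ± 0.22, adjusted p = 0.301), and its fold change was 0.53 without GS115 replicate 1 and 0.18 without GS115 replicate 2. ilvD (ACIB2EUKG769050), the dihydroxy-acid dehydratase, had 354 and 335 CPM in Dmxr1, against 213 and 269 CPM in GS115 (log2 0.51 ± 0.20, adjusted p = 0.0860), and DESeq2 called it higher at an adjusted p of 0.0454. ilvE (ACIB2EUKG772793), the branched-chain aminotransferase, had 0.31 ± 0.20 (adjusted p = 0.286). At an unadjusted p under 0.05 the group held 4 higher rows and 0 lower (13.5% and 18.5% of all genes). DESeq2 called 2 higher and 0 lower (6.75% and 11.4% of all genes).

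In the arginine and ornithine group 2 of 7 members rose and none fell, where 5.07% and 10.5% of all genes did. argD (ACIB2EUKG772350), the acetylornithine aminotransferase that makes acetylornithine, had 182 and 172 CPM in Dmxr1, against 106 and 106 CPM in GS115. Its GS115 libraries were nearly equal, and the log2 fold change was 0.74 ± 0.17 (adjusted p = 0.00919). OTC (ACIB2EUKG771346), the ornithine carbamoyltransferase that turns ornithine into citrulline, had 103 and 91.0 CPM in Dmxr1, against 61.5 and 55.5 CPM in GS115 (log2 0.73 ± 0.17, adjusted p = 0.00956). With Dmxr1 replicate 1 left out, argD had 0.70 (adjusted p = 0.0895) and OTC 0.64 (adjusted p = 0.125). The next enzymes did not pass. argG (ACIB2EUKG771786), the argininosuccinate synthase and the row with most counts, had 1111 and 1173 CPM in Dmxr1, against 1059 and 745 CPM in GS115 (log2 0.34 ± 0.22, adjusted p = 0.307), so GS115 replicate 1 came close to Dmxr1 and GS115 replicate 2 did not. Its fold change was 0.61 without GS115 replicate 1 and 0.11 without GS115 replicate 2. argH (ACIB2EUKG768490), the argininosuccinate lyase, had 249 and 209 CPM in Dmxr1, against 189 and 157 CPM in GS115 (log2 0.40 ± 0.19, adjusted p = 0.156). ORT1 (ACIB2EUKG771922), the carrier that exports ornithine from mitochondria, had -0.16 ± 0.19 (adjusted p = 0.602) and overlapped between strains.

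The ornithine rows of another role did not pass. ODC1 (ACIB2EUKG771561), the ornithine decarboxylase that opens polyamine synthesis, had 297 and 305 CPM in Dmxr1, against 433 and 363 CPM in GS115 (log2 -0.41 ± 0.19, adjusted p = 0.160), both Dmxr1 libraries below both GS115 libraries. rocD, the ornithine aminotransferase of arginine breakdown, had 0.081 ± 0.20 (adjusted p = 0.810) and overlapped between strains. In the second list, argJ, the ornithine acetyltransferase, had 0.39 ± 0.16 (adjusted p = 0.117), ARG56, which carries the kinase and reductase steps, had 0.28 ± 0.19 (adjusted p = 0.335), and ARG2, the acetylglutamate synthase, had -0.13 ± 0.17 (adjusted p = 0.615). The subunits of carbamoyl-phosphate synthase, carA and carB, had 0.46 ± 0.20 (adjusted p = 0.131) and 0.36 ± 0.20 (adjusted p = 0.230). DESeq2 called 2 members of the group higher and 0 lower (6.75% and 11.4% of all genes). At an unadjusted p under 0.05 there were 3 and 0 (13.5% and 18.5% of all genes).

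In the aromatic group 1 of 13 members rose and 1 fell (7.69% each), near the 5.07% and 10.5% of all genes. The median was -0.016, against 0.0041 over all genes. ARO8, which rose, was counted with lysine and is not among these 13. ARO9 (ACIB2EUKG772908), aromatic aminotransferase II, had 458 and 511 CPM in Dmxr1, against 1271 and 791 CPM in GS115. In Saccharomyces cerevisiae the enzyme starts the breakdown of aromatic amino acids and is induced by them. Of the 62 members it had the largest fold change (log2 -1.09 ± 0.24, adjusted p = 0.00685). Its level fell by 53.0%, and both Dmxr1 libraries lay below both GS115 libraries, which themselves differed widely. Leaving out GS115 replicate 1, the higher of the pair, gave -0.71 (adjusted p = 0.0450), and leaving out GS115 replicate 2 gave -1.39 (adjusted p = 4.02e-05). Leaving out Dmxr1 replicate 1 gave -1.01 (adjusted p = 0.0675). So the aromatic aminotransferases ARO8 and ARO9 changed in opposite directions.

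HAAO (ACIB2EUKG769729), the 3-hydroxyanthranilate dioxygenase of NAD synthesis from tryptophan, rose and makes no amino acid. Its level was 166 and 157 CPM in Dmxr1, against 85.7 and 112 CPM in GS115 (log2 0.71 ± 0.18, adjusted p = 0.0166). Leaving out Dmxr1 replicate 1 gave 0.67 (adjusted p = 0.112), and leaving out GS115 replicate 1 gave 0.53 (adjusted p = 0.110). pabC (ACIB2EUKG772751), the aminodeoxychorismate lyase of folate synthesis, had 58.7 and 80.7 CPM in Dmxr1, against 128 and 86.9 CPM in GS115 (log2 -0.62 ± 0.21, adjusted p = 0.0558). The chorismate mutase of phenylalanine and tyrosine synthesis (ACIB2EUKG773010) had 65.9 and 62.4 CPM in Dmxr1, against 111 and 71.5 CPM in GS115 (log2 -0.51 ± 0.20, adjusted p = 0.0951). GS115 replicate 1 stood highest in both, as in ARO9, and without GS115 replicate 2 both passed, at adjusted p-values of 0.00195 and 0.00279.

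The other steps to tryptophan, phenylalanine and tyrosine did not pass. trpE and TRP3, which make anthranilate, had -0.05 ± 0.18 (adjusted p = 0.870) and 0.054 ± 0.19 (adjusted p = 0.873). trpF, the phosphoribosylanthranilate isomerase, had -0.016 ± 0.17 (adjusted p = 0.957). trpD, the anthranilate phosphoribosyltransferase, had 73.0 and 61.8 CPM in Dmxr1, against 54.8 and 47.2 CPM in GS115 without overlap (log2 0.40 ± 0.17, adjusted p = 0.126). The tryptophan synthase rows TRP (ACIB2EUKG770009) and trpB (ACIB2EUKG771334) had 0.28 ± 0.18 (adjusted p = 0.32) and 0.17 ± 0.16 (adjusted p = 0.513). aroC, the chorismate synthase, had 0.026 ± 0.19 (adjusted p = 0.937). pheA, the prephenate dehydratase, had -0.064 ± 0.17 (adjusted p = 0.831), and TYR1, the prephenate dehydrogenase, had -0.085 ± 0.18 (adjusted p = 0.776). In the second list, ARO1, the AROM enzyme of the shikimate route, had 0.24 ± 0.20 (adjusted p = 0.417), and aroF, the first enzyme of that route, had 0.074 ± 0.21 (adjusted p = 0.835). None of these 11 rows passed, and 4 of them, ARO1, trpD, TRP and trpB, had both Dmxr1 libraries above both GS115 libraries, a share close to the 31.1% of all genes. DESeq2 also called 1 member of the group higher and 1 lower (6.75% and 11.4% of all genes). At an unadjusted p under 0.05 there were 2 and 3 (13.5% and 18.5% of all genes).

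In the aspartate family and methionine group 1 of 10 members rose and 1 fell, where 5.07% and 10.5% of all genes did. MET17 (ACIB2EUKG772700), the sulfhydrylase that builds sulfide into homocysteine, had 873 and 775 CPM in Dmxr1, against 549 and 529 CPM in GS115 (log2 0.61 ± 0.20, adjusted p = 0.0475). thrB1 (ACIB2EUKG771042), the homoserine kinase that commits homoserine to threonine, had 136 and 124 CPM in Dmxr1, against 235 and 162 CPM in GS115 (log2 -0.61 ± 0.20, adjusted p = 0.0496). MET17 lay higher and thrB1 lower in both Dmxr1 libraries than in either GS115 library. Both were close to the threshold. Leaving out Dmxr1 replicate 1 gave 0.53 (adjusted p = 0.339) for MET17 and -0.68 (adjusted p = 0.160) for thrB1. Without GS115 replicate 1, the higher of the pair, thrB1 had -0.32 (adjusted p = 0.350). With Dmxr1 replicate 2 left out it had -0.55 (adjusted p = 0.189).

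The steps before homoserine had positive values that did not pass. hom (ACIB2EUKG768614), the homoserine dehydrogenase, had the smallest adjusted p of the rows of this group that did not pass, with 492 and 486 CPM in Dmxr1, against 343 and 321 CPM in GS115. The strains did not overlap (log2 0.56 ± 0.19, adjusted p = 0.0581), and DESeq2 called it higher at an adjusted p of 0.0125. lysC, the aspartate kinase, had 213 and 237 CPM in Dmxr1, against 177 and 162 CPM in GS115 (log2 0.40 ± 0.18, adjusted p = 0.137), and asd, the aspartate-semialdehyde dehydrogenase of the second list, had 545 and 529 CPM in Dmxr1, against 418 and 356 CPM in GS115 (log2 0.47 ± 0.19, adjusted p = 0.110). thrC, the threonine synthase after thrB1, had 0.16 ± 0.19 (adjusted p = 0.571). CBS, the cystathionine beta-synthase, had 0.35 ± 0.19 (adjusted p = 0.219). The metX rows, homoserine acetyltransferases, had 0.14 ± 0.16 (adjusted p = 0.599) and 0.11 ± 0.17 (adjusted p = 0.696), metB, the cystathionine gamma-synthase, -0.10 ± 0.18 (adjusted p = 0.720), and CTH, the cystathionine gamma-lyase that breaks cystathionine down, 0.099 ± 0.18 (adjusted p = 0.743). DESeq2 called 2 of the 10 higher and 1 lower (6.75% and 11.4% of all genes). At an unadjusted p under 0.05 there were 3 and 1 (13.5% and 18.5% of all genes).

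Sulfate assimilation, which supplies MET17 with sulfide, stood in the second list. met3 (ACIB2EUKG768823), the sulfate adenylyltransferase, had 286 and 242 CPM in Dmxr1, against 156 and 173 CPM in GS115 (log2 0.68 ± 0.19, adjusted p = 0.0239). cysJ (ACIB2EUKG772656), the flavoprotein of sulfite reductase, had 421 and 367 CPM in Dmxr1, against 184 and 235 CPM in GS115 and the largest increase of the list (log2 0.91 ± 0.20, adjusted p = 0.00729). Its partner cysI had 979 and 753 CPM in Dmxr1, against 558 and 605 CPM in GS115 (log2 0.58 ± 0.21, adjusted p = 0.0750). The steps between met3 and sulfite reductase gave -0.096 ± 0.17 (adjusted p = 0.737) for the adenylylsulfate kinase cysC and 0.068 ± 0.16 (adjusted p = 0.806) for the reductase cysH. cysK (ACIB2EUKG770141), annotated as a cysteine synthase, had 188 and 175 CPM in Dmxr1, against 118 and 122 CPM in GS115 (log2 0.60 ± 0.17, adjusted p = 0.0289), while the second cysK row, ACIB2EUKG768058, had -0.094 ± 0.17 (adjusted p = 0.731). After homocysteine, metE (methionine synthase) and metK (S-adenosylmethionine synthetase) lay higher in both Dmxr1 libraries without passing, with 0.53 ± 0.21 (adjusted p = 0.0937) and 0.54 ± 0.22 (adjusted p = 0.107). mmuM (ACIB2EUKG772332), annotated as a homocysteine S-methyltransferase, lay lower in both without passing, with 56.6 and 50.6 CPM in Dmxr1, against 72.0 and 62.2 CPM in GS115 (log2 -0.32 ± 0.17, adjusted p = 0.208). Without Dmxr1 replicate 1 no row of the second list passed, and cysJ had 0.81 (adjusted p = 0.0714), met3 0.55 (adjusted p = 0.233) and cysK 0.55 (adjusted p = 0.215). Without GS115 replicate 1, met3 had 0.60 (adjusted p = 0.0952) and cysK 0.57 (adjusted p = 0.0911), and without Dmxr1 replicate 2 cysK had 0.65 (adjusted p = 0.0683).

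Of the members of ammonium assimilation, glutamate synthase rose, an enzyme that takes its nitrogen from glutamine and not from free ammonium. GLT1 (ACIB2EUKG770906), which makes glutamate from glutamine and 2-oxoglutarate, had 1914 and 1605 CPM in Dmxr1, against 899 and 1106 CPM in GS115. The gap between strains was larger than the spread within either (log2 0.81 ± 0.22, adjusted p = 0.0217). Leaving out Dmxr1 replicate 1 gave 0.68 (adjusted p = 0.222), and leaving out GS115 replicate 1 gave 0.67 (adjusted p = 0.102). glnA (ACIB2EUKG772198), the glutamine synthetase, had 4904 and 8144 CPM in Dmxr1, against 7200.1 and 6119 CPM in GS115, so the Dmxr1 replicates lay on either side of both GS115 libraries. Its log2 fold change was -0.03 ± 0.27 (adjusted p = 0.951), and its direction flipped without GS115 replicate 1 (0.090) and without Dmxr1 replicate 1 (0.29). It was 0.038 with upper-quartile scaling and 0.052 with library size alone, where the median of all genes was 0.066 and 0.079, so glnA lay below that median with each scaling, TMM included. glnA alone held 16.8% and 26.0% of the members' counts in Dmxr1, against 25.5% and 24.5% in GS115. As raw shares without TMM factors, the members together took 3.07% and 3.16% of all counts in Dmxr1, against 2.50% and 2.66% in GS115. Without glnA these shares were 2.56% and 2.34%, against 1.86% and 2.01%. With TMM scaling the members summed to 29197 and 31335 CPM in Dmxr1, against 28231 and 24969 CPM in GS115, so the gap was narrower. asnB (ACIB2EUKG771290), the asparagine synthetase, had 0.22 ± 0.20 (adjusted p = 0.472) and overlapped. The folate enzymes FPGS and folC, whose annotation holds the same words, had 0.17 ± 0.18 (adjusted p = 0.552) and 0.089 ± 0.17 (adjusted p = 0.740). At an unadjusted p under 0.05 the group held 1 higher row and 0 lower (13.5% and 18.5% of all genes). DESeq2 also called 1 and 0 (6.75% and 11.4% of all genes).

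The glutamate dehydrogenases stood in the second list. gdhA (ACIB2EUKG768193), the NADP enzyme that fixes ammonium, had 3754 and 3894 CPM in Dmxr1, against 2702 and 1929 CPM in GS115, without overlap, and missed the threshold (log2 0.72 ± 0.24, adjusted p = 0.0515). GDH2 (ACIB2EUKG770416), the NAD enzyme that releases ammonia from glutamate, fell, with 420.3 and 401 CPM in Dmxr1, against 702 and 766 CPM in GS115 (log2 -0.84 ± 0.20, adjusted p = 0.0100), -0.87 (adjusted p = 0.0944) without Dmxr1 replicate 1 and -0.80 (adjusted p = 0.0690) without Dmxr1 replicate 2.

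**Figure D4:**
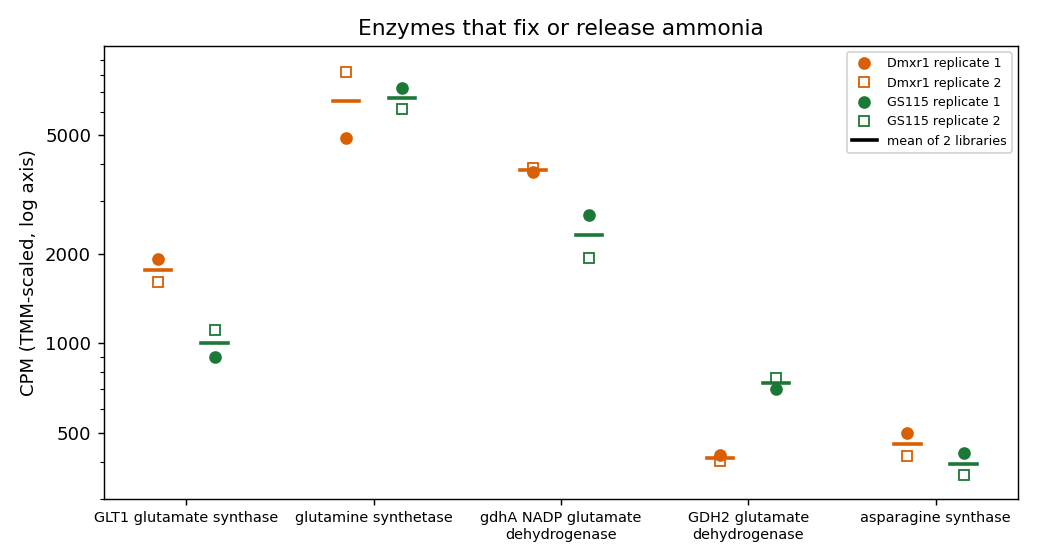
Level in each library of 5 enzymes that fix or release ammonia or pass on the nitrogen of glutamine. Levels are in TMM-scaled CPM on a log axis, with Dmxr1 in orange to the left of GS115 in green. Replicate 1 is filled, replicate 2 is open and the mean of the 2 libraries is a bar. GLT1 and asparagine synthase take their nitrogen from glutamine. GLT1 and gdhA are higher in both Dmxr1 libraries and GDH2 is lower in both, while glutamine synthetase spans 4904 to 8144 CPM within Dmxr1.

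Neither proline row passed, by edgeR or by DESeq2, and none was under an unadjusted p of 0.05. proC (ACIB2EUKG772618), the pyrroline-5-carboxylate reductase that ends proline synthesis, had 44.7 and 44.9 CPM in Dmxr1, against 62.1 and 45.0 CPM in GS115 (log2 -0.26 ± 0.18, adjusted p = 0.354). The pyrroline-5-carboxylate dehydrogenase of proline breakdown (ACIB2EUKG769830) had 444 and 269 CPM in Dmxr1, against 255 and 271 CPM in GS115, where Dmxr1 replicate 1 stood apart (log2 0.44 ± 0.23, adjusted p = 0.197). Its fold change was 0.030 without Dmxr1 replicate 1 and 0.75 without Dmxr1 replicate 2. In the second list proB (ACIB2EUKG771696), the glutamate 5-kinase that opens proline synthesis, fell, with 162 and 228 CPM in Dmxr1, against 433 and 289 CPM in GS115 (log2 -0.89 ± 0.23, adjusted p = 0.0178), and proA, the next enzyme, had -0.051 ± 0.21 (adjusted p = 0.895). With Dmxr1 replicate 1 left out proB had -0.66 (adjusted p = 0.216), and with GS115 replicate 1 left out -0.57 (adjusted p = 0.115).

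The aminotransferases left over held no call by edgeR, where 5.07% of all genes rose and 10.5% fell. At an unadjusted p under 0.05, 2 of 6 were higher and 1 lower (13.5% and 18.5% of all genes). DESeq2 called 0 higher and 1 lower (6.75% and 11.4% of all genes). The ABAT rows, annotated as GABA transaminases of GABA breakdown, differed in sign. ACIB2EUKG770643 had 63.5 and 62.9 CPM in Dmxr1, against 41.7 and 49.3 CPM in GS115 (log2 0.47 ± 0.17, adjusted p = 0.0732). ACIB2EUKG772317 had 250.1 and 190.0 CPM in Dmxr1, against 331 and 308 CPM in GS115 (log2 -0.54 ± 0.20, adjusted p = 0.0777), and was the row that DESeq2 called lower, at an adjusted p of 0.0397. Neither overlapped between strains. BNA3, the kynurenine aminotransferase of the NAD route, had 0.47 ± 0.17 (adjusted p = 0.0763). The aspartate aminotransferases had 2526 and 2463 CPM in Dmxr1, against 2106 and 2125 CPM in GS115 for the mitochondrial GOT2 (log2 0.24 ± 0.22, adjusted p = 0.472), the row with most counts, and a fold change of 0.042 ± 0.20 (adjusted p = 0.910) for the cytoplasmic GOT1. serC, the phosphoserine aminotransferase of serine synthesis, had -0.19 ± 0.21 (adjusted p = 0.570).

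Over the whole second list, 4 of 39 rows rose (10.3%, against 5.07% of all genes), 4 fell (10.3%, against 10.5%), and the median log2 fold change was 0.13. These values include rows of other routes that the list's words took in. Among them are glmS (glutamine-fructose-6-phosphate transaminase), URA2 (aspartate carbamoyltransferase) and APA1_2 (ATP adenylyltransferase), which did not pass. The 4 that rose were hisG, cysJ, met3 and cysK. Besides GDH2 and proB, the rows that fell were ltaE (ACIB2EUKG772945), a threonine aldolase, and CHA1 (ACIB2EUKG769828), the serine and threonine ammonia-lyase that breaks these amino acids down. ltaE had 596 and 718 CPM in Dmxr1, against 1707 and 1026 CPM in GS115 (log2 -1.06 ± 0.25, adjusted p = 0.0101), and CHA1 had 35.4 and 52.3 CPM in Dmxr1, against 97.6 and 61.3 CPM in GS115 (log2 -0.86 ± 0.23, adjusted p = 0.0206). In both, GS115 replicate 1 was the highest library. Without it the fold changes were -0.65 (adjusted p = 0.0811) for ltaE and -0.49 (adjusted p = 0.168) for CHA1, and with Dmxr1 replicate 1 left out they were -0.93 (adjusted p = 0.115) and -0.60 (adjusted p = 0.216).

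**Figure D5:**
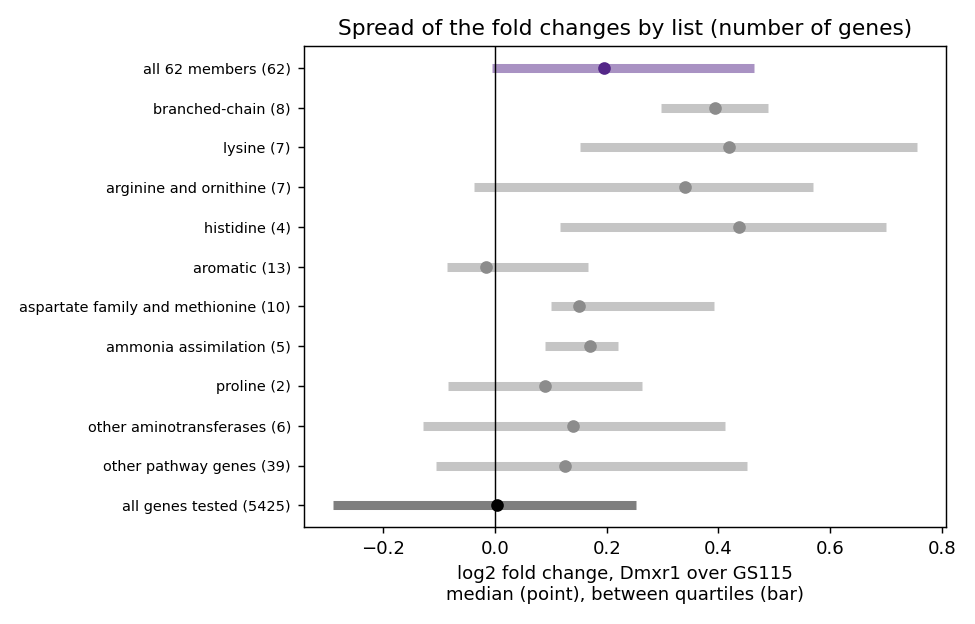
Median log2 fold change, Dmxr1 over GS115 (points, x axis), and the range between the quartiles (bars) for all 62 members, each pathway group, the 39 other pathway genes and all 5425 genes tested. The medians of the branched-chain, lysine, arginine and histidine groups lie between 0.34 and 0.44, the aromatic median at -0.016 and that of all genes at 0.0041. ARO8 is counted with lysine.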

How the data were processed

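RNA of Dmxr1 and GS115 (2 libraries each) was depleted of rRNA, and the authors deposited raw gene counts. Per the labels and the study's methods, reads were demultiplexed with bcl2fastq 2.19.0.316, trimmed with fastp 0.19.6, aligned with Bowtie2 to a K. phaffii reference genome and counted with featureCounts 1.6.4. The sources used here state no strand or multiple-match setting. The 5425 of 5427 genes that reached 5 counts in 2 or more libraries were fitted with edgeR 4.0.16 (quasi-likelihood test, TMM, limma 3.58.1, R 4.3.3), adjusted by Benjamini-Hochberg. The study used DESeq2, here an alternative (1.42.0). The SE is the fold change over the root of F. All value columns of the table were mapped to samples.

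Members, pathway groups and the second list were chosen with earlier results of these data known. Named genes were members with an adjusted p of at most 0.05, the lowest p and highest level of each pathway group, and second-list rows that passed. Other rows were named to complete a route. The values of 1 member are not reported here, though it stays in the counts and medians. Replicates differed beyond counting noise (chi-square per degree of freedom 93.2 in Dmxr1 and 173 in GS115). The study calls them biological replicates. The test was checked on simulated counts.

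The alternatives were other scalings, other count filters, DESeq2, each library left out, replicate blocks, and the members without the 11 rows of another role.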

Additional observations from a re-analysis of the deposited data

How the results depend on the processing

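With a replicate block, 6 members were higher and 1 lower, and 2 rows of the second list were higher and 1 lower (107 and 282 over all genes). The shared numbers are not stated to pair the libraries, and same-numbered deviations correlated at -0.144 over genes. A crossed replicate block, chosen after seeing the data, gave 12 and 2 members and 363 and 677 of all genes. With library size alone 1 member was lower, 1 (hisC) was called higher and 0 lower at the log2 threshold, and the member median was 0.28. Upper-quartile scaling also called 1 higher at that threshold (hisC), and gave 8 higher rows of the second list, as DESeq2 did (8). With each library left out, members higher ranged from 0 to 11, members lower from 0 to 5, members called higher from 0 to 1, members called lower from 0 to 1, and the second list from 0 to 4 higher and 0 to 4 lower. These fits leave 1 library in a strain, which is assumed to vary like the other strain's. The glnA fold change ranged from -0.44 to 0.29 with each library left out, and was 0.038 with upper-quartile scaling, 0.052 with library size alone (the median of all genes was 0.066 and 0.079 there), 0.090 without GS115 replicate 1 and 0.29 without Dmxr1 replicate 1. Both scalings raised the median over all genes, and the size of the rise differed between genes. Causes of the glnA changes were not tested. Dropping the count filter, or asking for 1 CPM, left 11 members higher and 2 lower. With 2 libraries per strain, members that did not pass are not shown to be equal between strains.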

Other observations

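Several rows of these routes carry no matching KEGG words, and they were chosen after their values were seen. For these rows and those of the next paragraph, only the edgeR fit of all 4 libraries is given. HIS7 (ACIB2EUKG772288), the imidazole glycerol-phosphate synthase of the histidine route, rose, with 201 and 212 CPM in Dmxr1, against 133 and 142 CPM in GS115 (log2 0.58 ± 0.18, adjusted p = 0.0354). Acetolactate synthase has regulatory subunits in 2 further rows. ACIB2EUKG767985 fell, with 54.5 and 48.8 CPM in Dmxr1, against 131 and 81.9 CPM in GS115 (log2 -1.04 ± 0.21, adjusted p = 0.00404), while ACIB2EUKG770122 had 4.73 and 5.82 CPM in Dmxr1, against 5.84 and 5.05 CPM in GS115 (log2 -0.041 ± 0.24, adjusted p = 0.926). These values stand beside those of the large subunit ilvB and the small subunit ilvH, which did not pass.

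Among the regulators, PUT3 (ACIB2EUKG770394), the activator of proline utilization, fell, with 130.4 and 127 CPM in Dmxr1, against 197 and 236 CPM in GS115 (log2 -0.75 ± 0.18, adjusted p = 0.0120). GCN4 (ACIB2EUKG768920), the activator of general amino acid control, had 1545 and 1409 CPM in Dmxr1, against 1124 and 963 CPM in GS115, without overlap and without passing (log2 0.50 ± 0.21, adjusted p = 0.114). Gcn4 is controlled mainly at translation in Saccharomyces cerevisiae, which mRNA counts do not measure. GCN1 had 0.26 ± 0.18 (adjusted p = 0.349), LEU3, the regulator of leucine synthesis, -0.25 ± 0.18 (adjusted p = 0.369), and ARG81, the regulator of arginine metabolism, 0.14 ± 0.18 (adjusted p = 0.615). The ARO10 rows, which decarboxylate phenylpyruvate after ARO9, had 0.17 ± 0.20 (adjusted p = 0.592) and 0.32 ± 0.17 (adjusted p = 0.197). None of the last 5 rows passed.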
